A study of Danio rerio with 6 samples.

Results

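Levels of gata1a and of 4 erythroid genes, alas2, slc4a1a, cahz and hbae3, were followed in thrombocytes sorted from zebrafish larvae. These 5 genes were taken by their Ensembl identifiers from a table of 32520 genes. They are ENSDARG00000013477 (gata1a), ENSDARG00000038643 (alas2), ENSDARG00000012881 (slc4a1a), ENSDARG00000011166 (cahz) and ENSDARG00000079305 (hbae3). All 5 were among the 15722 genes that passed the filter on low counts. Thrombocytes are the nucleated cells that serve fish in place of mammalian platelets, and itga2b, which encodes an integrin subunit of the fibrinogen receptor, is a standard marker of them. RNA came from larvae at 5 days post fertilization and was sequenced as 6 libraries. The 3 control libraries came from larvae that carried the transgene -6.0itga2b:tagRFP. The 3 miR-150 libraries came from larvae that carried -6.0itga2b:miR-150-tagRFP instead, in which the itga2b promoter drives the microRNA miR-150 with the red reporter. Larvae of either group also carried -6.0itga2b:EGFP, were kept in 1-phenyl 2-thiourea (PTU) against pigmentation, and gave cells positive for GFP and TagRFP. The transgenes are active where the itga2b promoter is, and the number of larvae or cells per library is not given in the sources used here. Replicates are numbered as biological ones in the labels, and p-values set a difference between groups against the spread between these libraries.

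Gata1 is a zinc-finger transcription factor that binds GATA sequences and is required in vertebrates for red cells and for the megakaryocyte or thrombocyte lineage. In red cells it acts with Tal1, Lmo2, Ldb1 and Fog1 (ZFPM1) at genes for globins, heme synthesis and the cell membrane. The zebrafish gata1a mutant vlad tepes lacks red cells. Of its classical erythroid targets, alas2 encodes the first enzyme of heme synthesis in red cells and is mutated in the zebrafish line sauternes. The gene slc4a1a encodes band 3, the chloride and bicarbonate exchanger of the red cell membrane, and is mutated in the line retsina. The gene cahz encodes a carbonic anhydrase of early red cells, and hbae3 an embryonic alpha globin.

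Library totals ranged from 12972258 to 22150519 counts, so that 3 counts, used as the floor of detection, corresponded to between 0.147 and 0.223 CPM. CPM values are scaled to the library total and its TMM factor, edgeR's correction for library composition. Levels of different genes are not compared, because transcript lengths were not at hand. The marker itga2b, whose promoter drives the reporters, was at 3403 to 6199 CPM in the controls. It was at 4715, 4747 and 1297 CPM in miR-150 replicates 1, 2 and 3. Of 23 rows of thrombocyte markers, 20 passed the filter on low counts. Among the rest, P2RY12 held 0 counts in every library, and vwf held 881 counts in control 3 and at most 2 in any other library. The row for mir150 held 0 counts in every library and so checked neither label. miR-150 replicate 3 stood apart from the rest, its log2 CPM correlating with those of the other 5 at 0.60 on average, against 0.70 to 0.72 for each of these. Its summed level over 23 rows of thrombocyte markers was 6479 CPM, where the other 5 libraries had 20775 to 31188 CPM. Fold changes of the 5 genes are therefore also given without it. In bulk RNA, fewer cells of a type and less RNA per cell cannot be told apart.

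The transcription factor gene gata1a was detected in every library at 1781 counts or more, and its groups overlapped. Controls 1, 2 and 3 held 7283, 3542 and 3305 counts of gata1a, or 383, 238 and 162 CPM. miR-150 replicates 1, 2 and 3 held 4858, 5252 and 1781 counts, or 245, 281 and 132 CPM. The highest library was thus a control and the lowest was miR-150 replicate 3. The means were 261 ± 112 CPM in controls against 220 ± 77.7 CPM with miR-150 (SD, n = 3 each). The log2 fold change of gata1a was -0.25 ± 0.47 (SE) with an adjusted p of 0.991 in edgeR's quasi-likelihood test with Benjamini-Hochberg adjustment over all genes tested. No gene in the table passed an adjusted p of 0.05 in that test, which is 0% of 15722 genes, so none of the 5 genes did. It gave 855 genes an unadjusted p below 0.05, and DESeq2 called 257 genes after adjustment. Without miR-150 replicate 3 the log2 fold change was 0.02, and without control replicate 1 it was 0.14, so the sign of this small difference rested on single libraries. The standard deviation of its log2 CPM over the 6 libraries was 0.55, where the median over all genes tested was 1.13. That median was not matched for level, and it includes many genes with far fewer counts than gata1a.

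**Figure D1:**
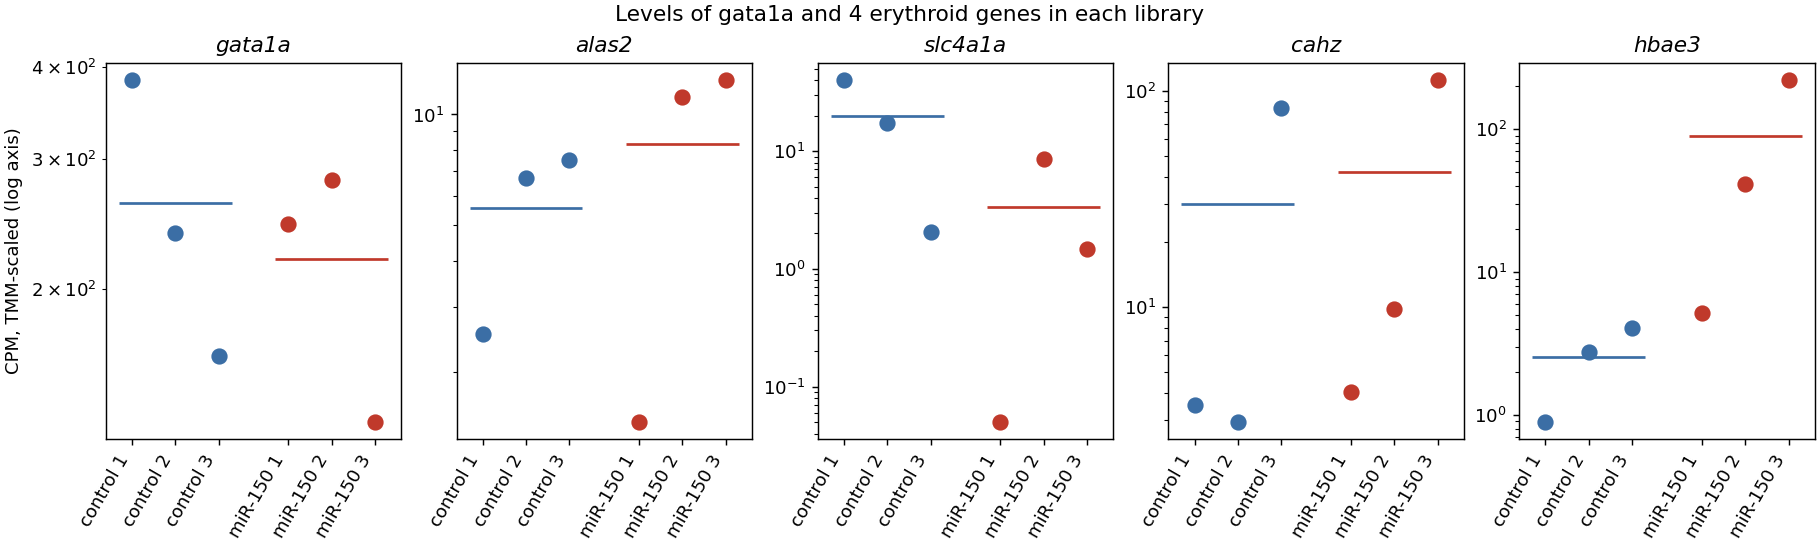
Level of each of the 5 genes in every library, in TMM-scaled CPM on a log axis with its own range in each panel; blue points are control and red points miR-150 libraries, and horizontal lines are group means of n = 3. For hbae3 alone among the 5, every miR-150 library lies above every control, and for gata1a the 6 libraries span 132 to 383 CPM.

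Normalised to the counts of itga2b in the same library, gata1a was flatter still across 5 of the 6 libraries. Controls 1, 2 and 3 had 61.9, 65.1 and 47.7 gata1a counts per 1000 itga2b counts. miR-150 replicates 1 and 2 had 52.0 and 59.2, and replicate 3 had 102. The low gata1a level of miR-150 replicate 3 therefore came with a still lower itga2b level, and the ratio there was the highest of the 6. The mean log2 ratio to itga2b was higher by 0.24 in miR-150 libraries (exact permutation test, two-sided, p = 0.7, and 0.8 after adjustment over 5 ratios; the smallest p that 3 against 3 allows is 0.1). The sign is opposite to that of the TMM-scaled difference, but miR-150 replicate 3 alone lay above every control. The log2 ratios were -4.27, -4.08 and -3.29 in miR-150 replicates 1, 2 and 3, against -4.01, -3.94 and -4.39 in controls 1, 2 and 3. Relative to the summed thrombocyte markers the log2 ratio of gata1a was higher by 0.56 (exact permutation test, two-sided, p = 0.3, adjusted 0.5). There too, miR-150 replicate 3 alone lay above every control.

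The second zebrafish copy of the factor, gata1b, was counted at most 151 times in any library. Of gata1b, controls 1, 2 and 3 held 151, 136 and 62 counts, while miR-150 replicate 2 held 17 counts and miR-150 replicates 1 and 3 held 0. Each control was thus above each miR-150 library, which held for 5.95% of all genes tested. The means were 6.71 ± 3.23 CPM in controls and 0.303 ± 0.526 CPM with miR-150 (SD, n = 3 each). The adjusted p of gata1b was 0.962 in edgeR and 0.357 in the DESeq2 Wald test, so the difference passed in neither. This gene was singled out after its values were seen.

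The heme synthesis enzyme gene alas2 was counted 29 to 208 times per library, and its groups overlapped. Controls 1, 2 and 3 held 48, 100 and 153 counts of alas2, or 2.53, 6.72 and 7.51 CPM. miR-150 replicates 1, 2 and 3 held 29, 208 and 167 counts, or 1.46, 11.1 and 12.4 CPM. The lowest and the highest values both lay in the miR-150 group, with every control between them. The means of alas2 were 5.58 ± 2.68 CPM and 8.33 ± 5.98 CPM (SD, n = 3 each). The log2 fold change of alas2 was 0.58 ± 1.02 (SE; edgeR quasi-likelihood test, adjusted p = 0.990). It was 0.18 without miR-150 replicate 3 and 1.02 without miR-150 replicate 1. Its housekeeping relative ALAS1, the form of the enzyme used outside red cells, had 205 ± 105 CPM in controls against 219 ± 86.6 CPM with miR-150 (SD, n = 3 each), with a log2 fold change of 0.10 ± 0.51 (SE).

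The band 3 gene slc4a1a had its highest value in a control and its lowest in a miR-150 library. Controls 1, 2 and 3 held 761, 258 and 42 counts of slc4a1a, or 40.1, 17.3 and 2.06 CPM. miR-150 replicates 1, 2 and 3 held 1, 160 and 20 counts, or 0.0505, 8.57 and 1.48 CPM. miR-150 replicate 1 was thus under the floor of 3 counts, while miR-150 replicate 2 lay above control 3. Control 1 alone held 61.3% of the 1242 slc4a1a counts. The group means were 19.8 ± 19.1 CPM and 3.37 ± 4.56 CPM (SD, n = 3 each), and the log2 fold change was -2.55 ± 1.64 (SE; edgeR quasi-likelihood test, adjusted p = 0.988). It was -1.51 without control replicate 1, -4.70 without miR-150 replicate 2 and -2.19 without miR-150 replicate 3. The other row that the symbol table names SLC4A1, ENSDARG00000024560, held 36 counts in miR-150 replicate 2 and 0 in the other 5 libraries.

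The carbonic anhydrase gene cahz was high in 1 library of each group and low in the remaining 4. Controls 1, 2 and 3 held 67, 44 and 1699 counts of cahz, or 3.53, 2.96 and 83.4 CPM. miR-150 replicates 1, 2 and 3 held 80, 183 and 1511 counts, or 4.04, 9.80 and 112 CPM. Within either group the highest library exceeded the lowest about as much, by 28.2-fold in controls and by 27.8-fold in miR-150 libraries. The log2 fold change of cahz was 0.49 ± 1.58 (SE; edgeR quasi-likelihood test, adjusted p = 0.995). It moved to 3.56 without control replicate 3 and to -2.11 without miR-150 replicate 3, and it was also negative without control replicate 1 (-0.045) or control replicate 2 (-0.15), so that its sign rested on which libraries were kept. The 2 libraries high in cahz both carry the number 3. The pairing check of the numbers across all genes gave correlations of -0.19, -0.10 and -0.04, and the numbers were not treated as pairs. That check covers all genes together and cannot decide whether a single gene follows the number. With the replicate number as a block the edgeR log2 fold change of cahz was 0.77 ± 0.55 (SE) and the adjusted p 0.989.

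The embryonic globin gene hbae3 was the only one of the 5 whose groups did not overlap in TMM-scaled CPM. Controls 1, 2 and 3 held 17, 41 and 82 counts of hbae3, or 0.895, 2.75 and 4.02 CPM. miR-150 replicates 1, 2 and 3 held 102, 773 and 2971 counts, or 5.15, 41.4 and 221 CPM. The lowest miR-150 library lay close above the highest control, and miR-150 replicate 3 alone held 74.5% of the 3986 hbae3 counts. Per 1000 itga2b counts the groups overlapped, with 1.18 in control 3 against 1.09 in miR-150 replicate 1. Per 1000 gata1a counts they overlapped as well (24.8 against 21.0), but not per 1000 counts of the summed thrombocyte markers (0.176 against 0.248). Among all genes tested, 7.64% had every miR-150 library above every control, and 13.6% did not overlap in either direction. The means of hbae3 were 2.56 ± 1.57 CPM in controls against 89.0 ± 115 CPM with miR-150 (SD, n = 3 each), which is 34.8-fold.

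The difference in hbae3 was called by one tool and not by the other. Its log2 fold change was 5.12 ± 1.38 (SE), with an unadjusted p of 0.00702 and an adjusted p of 0.758 in edgeR's quasi-likelihood test. At an unadjusted p below 0.05, 5.44% of all genes tested differed and 4.61% were higher in miR-150 libraries, and hbae3 was one of them, at rank 136 of all genes by p. The DESeq2 Wald test gave hbae3 a log2 fold change of 5.10 ± 1.17 (SE) and an adjusted p of 0.00195, where it called 1.73% of genes, 1.57% as higher and 0.169% as lower. Without miR-150 replicate 3 the log2 fold change was 3.19 in edgeR and 3.17 in DESeq2, and the DESeq2 adjusted p was 0.0967, so that the DESeq2 call ended. The mean of miR-150 replicates 1 and 2 was 23.3 CPM. With the replicate number as a block the edgeR log2 fold change was 4.08 ± 0.83 (SE) and the adjusted p 0.933. The exact permutation test on log2 CPM gave p = 0.1, two-sided, the smallest p that 3 against 3 allows. The same exact test gave p = 0.7 for gata1a, 0.9 for alas2, 0.2 for slc4a1a and 0.5 for cahz. These 4 genes passed in neither tool, and DESeq2 gave cahz no adjusted p.

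**Figure D2:**
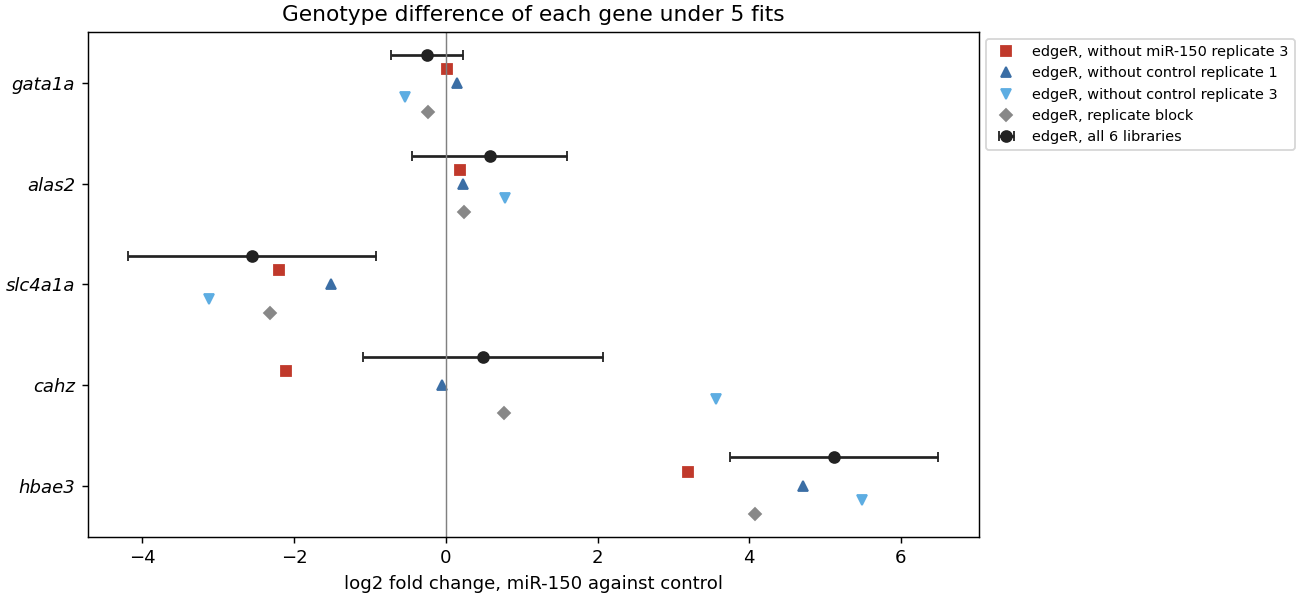
The log2 fold change between miR-150 and control libraries (x axis) for each of the 5 genes (y axis) in 5 edgeR fits; the black point with its bar is the estimate ± SE over all 6 libraries and the other symbols are estimates without 1 library or with the replicate block. The estimate for cahz lies between -2.11 and 3.56 depending on the library left out, while hbae3 stays at or above 3.19 and slc4a1a at or below -1.51 in the fits shown.

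Relative to gata1a, slc4a1a was highest in control 1, whereas alas2, cahz and hbae3 were highest in miR-150 replicate 3. Per 1000 gata1a counts, hbae3 stood at 2.33, 11.6 and 24.8 for controls 1, 2 and 3, and at 21.0, 147 and 1668 for the miR-150 replicates in the same order. The corresponding values of cahz were 9.20, 12.4 and 514 in controls and 16.5, 34.8 and 848 in miR-150 libraries. Those of alas2 were 6.59, 28.2 and 46.3 in controls and 5.97, 39.6 and 93.8 in miR-150 libraries. In either group, all 3 of these genes rose in the order of the replicate numbers 1, 2 and 3. Whether libraries of the same number share a batch was not tested. The gene slc4a1a went the other way, with 104, 72.8 and 12.7 counts per 1000 gata1a counts in controls 1, 2 and 3 and 0.206, 30.5 and 11.2 in miR-150 replicates 1, 2 and 3. The ratio of cahz to hbae3 counts ran from 0.237 in miR-150 replicate 2 to 20.7 in control 3. The ratio of alas2 to hbae3 counts ran from 0.0562 in miR-150 replicate 3 to 2.82 in control 1.

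The ratios to gata1a were compared between the genotypes by exact tests that at 3 against 3 could not pass 0.05. The mean log2 ratio of hbae3 to gata1a was -6.81 ± 1.72 for controls against -2.53 ± 3.16 for the other group (SD, n = 3 each), a difference of 4.28 (exact permutation test, two-sided, p = 0.2, and 0.4 adjusted over 4 ratios). That of slc4a1a was lower by 3.27 on the log2 scale, from -4.44 ± 1.62 in controls to -7.71 ± 3.49 (SD, n = 3 each; exact permutation test, p = 0.2, adjusted 0.4). Without miR-150 replicate 1, whose single slc4a1a count lay under the floor, the difference was -1.30. The differences were 1.01 for cahz and 0.46 for alas2 (exact permutation tests, adjusted p = 0.667 and 0.8). Without miR-150 replicate 3 those of cahz and alas2 turned to -0.70 and -0.41, and without control replicate 1 to -0.027 and -0.36. Ratios within a library need no scaling between libraries, and gene length was not divided out, so that they are read across libraries and not between genes.

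**Figure D3:**
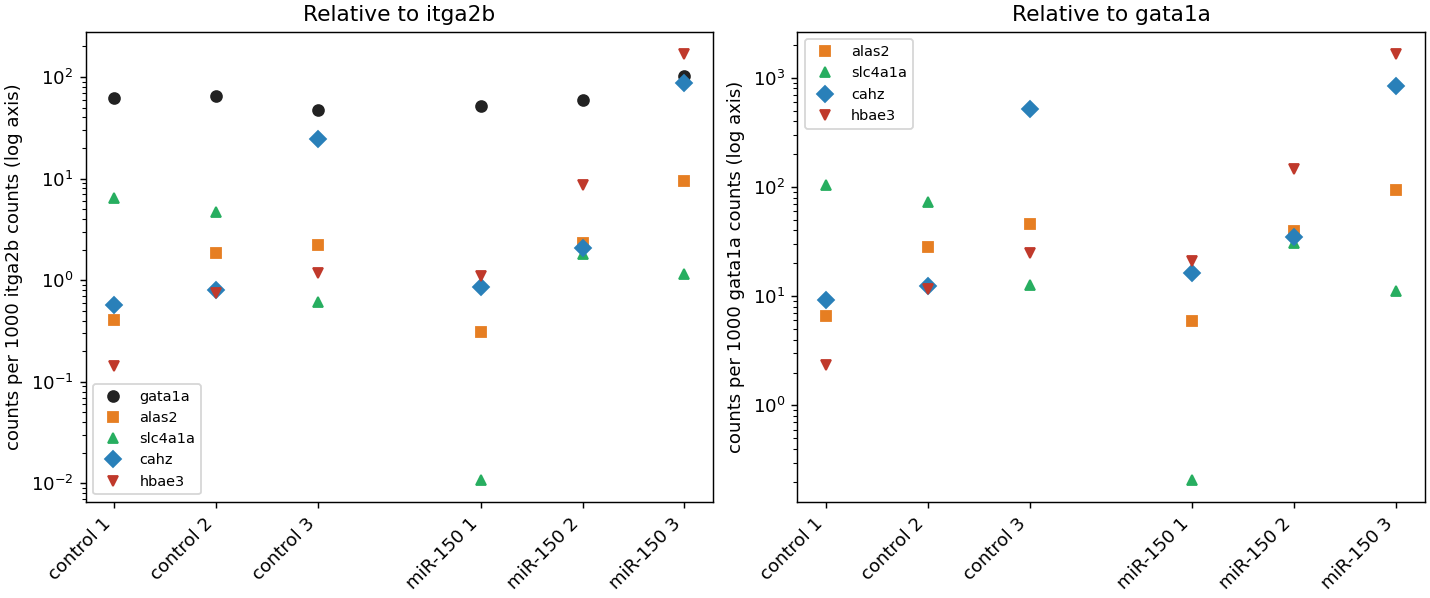
Counts of each gene per 1000 counts of itga2b (left) and per 1000 counts of gata1a (right) in every library, on log axes. On the left gata1a stays between 47.7 and 102, while hbae3, cahz, alas2 and slc4a1a each span a wider range, with slc4a1a highest in control 1 and the other 3 in miR-150 replicate 3.

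The other genes of the erythroid program were taken from 6 lists chosen with earlier results of these data known, which gave 89 rows beside the 5 genes, 77 of them tested. None passed an adjusted p of 0.05 in edgeR, and none in DESeq2. At an unadjusted p below 0.05 in edgeR, 1 of the 77 was higher and 6 were lower in miR-150 libraries, where 4.61% and 0.827% of all genes were. Of the 77, 25 had a positive and 52 a negative log2 fold change, with a median of -0.45, against 0.04 over all genes tested. The groups did not overlap for 14 rows that were lower and 2 that were higher in miR-150 libraries, or 18.2% and 2.60%, where all genes gave 5.95% and 7.64%. The thrombocyte markers leaned the same way, with 18 of 20 tested rows negative and a median of -0.46. The erythroid lists and the thrombocyte list shared 1 row, NFE2. Each symbol was put in a list by choice, so this small overlap does not show the erythroid rows to be particular to red cells. The regulator list held 21 of the 52 negative rows. Without miR-150 replicate 3 the median over the erythroid rows was -0.28 and over the thrombocyte rows -0.20, and without control replicate 1 the erythroid median was -0.10.

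Of 14 globin symbols listed, 8 were matched to rows, and 2 of these besides hbae3 were tested. The beta globin symbols listed other than hbbe3 were not matched, so their levels are not known here and globin sums leave them out. The neighbour hbae1.3, which lies next to hbae3 with 0 genes between them in the RefSeq annotation of GRCz12tu, had 4.35 ± 2.30 CPM in controls against 16.3 ± 20.2 CPM with miR-150 (SD, n = 3 each). The gene hbae1.1, in the same cluster, had 11.1 ± 3.83 and 22.7 ± 28.7 CPM. Both had their highest value in miR-150 replicate 3, at 39.6 CPM for hbae1.3 and 55.7 CPM for hbae1.1, and neither rose or fell past the threshold (edgeR adjusted p = 0.988 for both). Of hbae1.3, miR-150 replicates 1 and 2 had 3.73 and 5.62 CPM, within the 2.40 to 6.90 CPM of the controls. The adult alpha globin genes hbaa1 and hbaa2 and the embryonic beta globin gene hbbe3 held 0 counts in every library, and hbae4 and hbae5 were at 0 in at least 3 of the 6. The summed level of the 8 globin rows was 13.5 to 26.6 CPM in controls, 14.1 and 58.5 CPM in miR-150 replicates 1 and 2 and 316 CPM in miR-150 replicate 3. Reads from near-identical globin copies could have been split or dropped in counting, so single globin rows are uncertain.

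In heme synthesis, 7 of the 13 tested rows other than alas2 had a positive log2 fold change, with a median of 0.08 against 0.04 over all genes tested. With upper-quartile scaling the heme and all-gene medians were -0.02 and -0.05, and with library totals alone -0.14 and -0.15. Without miR-150 replicate 3 the heme median was -0.10. PPOX, which makes protoporphyrin, had 27.2 ± 3.66 CPM in controls against 14.5 ± 15.2 CPM with miR-150 (SD, n = 3 each). The mitochondrial carrier gene slc25a39 had 34.2 ± 14.6 and 36.1 ± 10.6 CPM, and uros, which makes uroporphyrinogen, 17.2 ± 6.34 and 17.0 ± 4.88 CPM. In iron handling, 3 of 11 tested rows were positive, with a median of -0.34. Without miR-150 replicate 3 it was 6 of 12, with a median of -0.11. Without control replicate 1 it was 6 of 11 (median 0.06), and without control replicate 3 it was 2 of 12 (median -0.54). The ferritin gene fth1a had 275 ± 115 and 251 ± 90.8 CPM, GLRX5, an iron-sulfur cluster factor, 147 ± 75.0 and 108 ± 34.5 CPM, ACO1 60.2 ± 8.90 and 59.7 ± 42.4 CPM, and IREB2, an iron-responsive regulator, 167 ± 27.5 and 77.1 ± 57.3 CPM (SD, n = 3 in each group, controls first). The groups did not overlap for IREB2, as for 5.95% of all genes tested in that direction, and its edgeR adjusted p was 0.988.

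Among membrane and skeleton genes other than slc4a1a, 6 of the 14 tested rows had positive and 8 negative log2 fold changes, with a median of -0.59. That median turned to 0.34 with no filter on low counts, to 0.18 without control replicate 1, to 0.08 without control replicate 3 and to 0.20 without miR-150 replicate 3. The 4 rows with the highest mean CPM, given next, all had negative fold changes. RHAG, the Rh-associated ammonium channel of red cells, had 796 ± 242 CPM in controls against 455 ± 118 CPM with miR-150 (SD, n = 3 each). Its groups did not overlap, at 566 to 1049 CPM against 327 to 561 CPM, as for 5.95% of all genes tested in that direction. Its log2 fold change was -0.81 ± 0.44 (SE, edgeR adjusted p = 0.988). The blood-group endopeptidase gene kel had 215 ± 46.3 and 54.2 ± 62.3 CPM. Its groups did not overlap either, at 164 to 253 CPM in controls against 35.2, 124 and 3.64 CPM in miR-150 replicates 1, 2 and 3. The log2 fold change of kel was -1.99 ± 1.03 (SE, edgeR adjusted p = 0.988). The spectrin gene SPTB had 82.5 ± 19.3 and 44.6 ± 26.3 CPM, and the glucose transporter row SLC2A1 (ENSDARG00000007412) 142 ± 59.1 and 109 ± 98.6 CPM. The row with the largest positive fold change of this list, TMOD1, was at 0 counts in all 3 controls, while miR-150 replicates 1, 2 and 3 held 12, 13 and 56. TMOD1 thus passed the filter through its miR-150 counts alone, and 7.64% of all genes tested did not overlap in that direction. Its edgeR adjusted p was 0.807. The row with the largest negative fold change, RHCG (ENSDARG00000003203), had -4.82 ± 1.97 (SE, edgeR adjusted p = 0.912), and its groups overlapped. TMOD1 and RHCG were singled out after their values were seen.

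Among the other enzymes, 9 of the 12 tested rows beside cahz had negative log2 fold changes. The biliverdin reductase gene blvrb had 1179 ± 332 CPM in controls against 553 ± 145 CPM with miR-150 (SD, n = 3 each), with no overlap and an edgeR adjusted p of 0.914. CREG1 had 93.0 ± 13.6 and 42.7 ± 18.4 CPM, also without overlap, with an adjusted p of 0.857. Among all genes tested, 5.95% did not overlap in this direction. The catalase gene CAT had 82.0 ± 19.4 and 57.8 ± 9.59 CPM. PKLR, the pyruvate kinase of red cells and liver, was high in control 3, at 261 CPM, against 3.05 and 7.66 CPM in controls 1 and 2. In miR-150 replicates 1, 2 and 3 it had 99.9, 6.05 and 32.1 CPM. In control 3 the summed level of 11 liver marker rows was 2731 CPM, where it was 21.9 to 528 CPM in the other 5. The part of liver RNA in the PKLR level was not tested.

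Genes for the partners of Gata1 named above, TAL1, LMO2, LDB1 and ZFPM1, were detected in every library. Of 25 tested regulator rows other than gata1a, 21 had negative log2 fold changes, with a median of -0.58. Without miR-150 replicate 3 the median was -0.35, with 19 of 25 negative. TAL1 had 833 ± 371 CPM in controls and 460 ± 339 CPM in miR-150 libraries, LMO2 511 ± 211 and 358 ± 120 CPM, ZFPM1 580 ± 97.2 and 309 ± 179 CPM and NFE2 509 ± 184 and 382 ± 199 CPM (SD, n = 3 in each group). All 4 were lowest in miR-150 replicate 3, as gata1a and itga2b were, and their groups overlapped. Of the 26 tested regulator rows with gata1a, 6 were lower and 0 higher in miR-150 libraries without overlap. Among all genes tested, 5.95% and 7.64% were. LDB1 row ENSDARG00000010137 had 79.7 ± 33.2 and 53.2 ± 22.2 CPM. LDB1 row ENSDARG00000103158 had 149 ± 24.0 and 98.5 ± 50.5 CPM. Both were lowest in miR-150 replicate 3, at 35.6 and 40.2 CPM. In contrast klf1, an erythroid Krüppel-like factor gene, held 0 counts in every library, which allows up to 0.223 CPM in the library with the highest floor. Of the other Krüppel-like genes of the list, KLF3 was detected in every library, at 153 CPM on average. The gene klf17 held 0, 16 and 28 counts in controls 1, 2 and 3, and 81, 0 and 0 in miR-150 replicates 1, 2 and 3. The Krüppel-like genes were singled out after their values were seen.

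**Figure D4:**
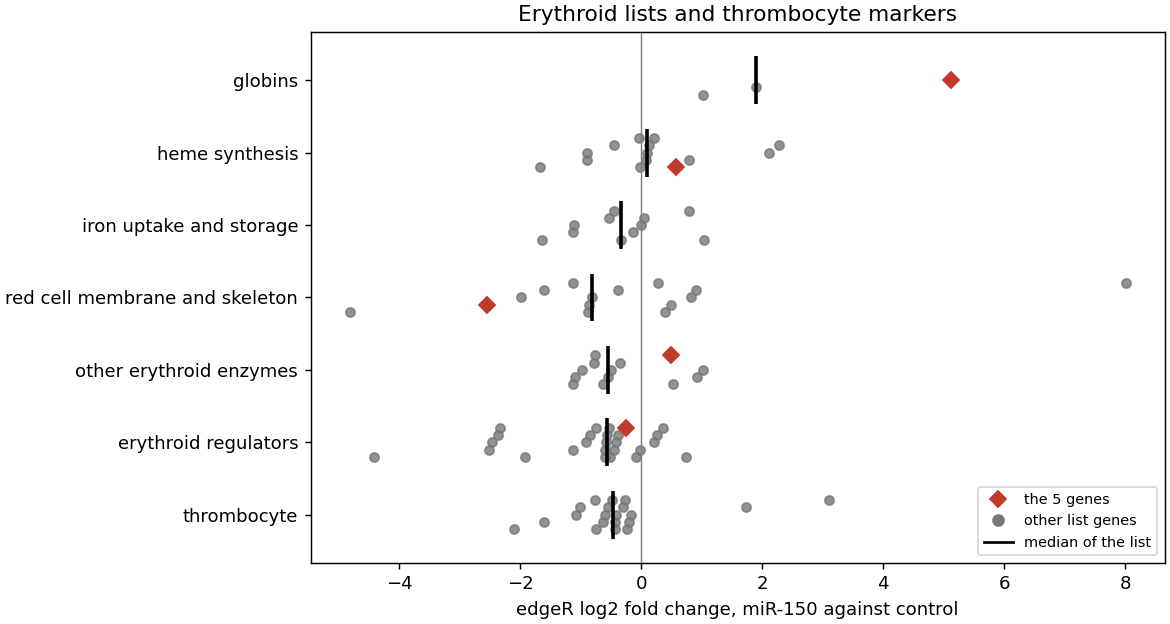
Each point is the edgeR log2 fold change (x axis) of 1 tested row of the list named on the y axis; red diamonds are the 5 genes and black bars are list medians. The globin list holds 3 tested rows. The medians, drawn with the 5 genes included, are below 0 for every list except globins and heme synthesis.

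The genes most like gata1a were ranked by Pearson's r of log2 CPM over the 6 libraries, among 10989 genes with a mean of at least 5 CPM. The first 5 were si:ch211-153b23.5, lmo4a, TES, RGS13 and RSPRY1, with r between 0.98 and 0.99. In TES, for example, controls 1, 2 and 3 had 500, 316 and 233 CPM and miR-150 replicates 1, 2 and 3 had 359, 342 and 188 CPM, the same order of libraries as gata1a except that miR-150 replicates 1 and 2 changed places. With 6 points that share library and depth, 202 genes had an r above 0.9, so that this is a description only. None of the 4 erythroid genes was among the first 5. Their r with gata1a was -0.55 for alas2, 0.50 for slc4a1a, -0.86 for cahz and -0.63 for hbae3. For alas2 the first 5 were REV3L, ushbp1, MOXD1, ccdc51 and ctsbb, with r of 0.97 to 0.98, and 58 genes had an r above 0.9. None of the 5 genes studied was among the 10 with the smallest p-values in the genotype comparison, which were SLC13A2, RAB11FIP4, mastl, TMPRSS2, fabp4a, s1pr3a, PALM, AKT2, si:ch211-254p10.2 and CYP51A1, none of them past the threshold.

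Markers of other cell types varied between libraries in patterns of their own. The summed level of 13 epidermis rows was 810 CPM in control 1, 12484 and 18827 CPM in controls 2 and 3, and 4202 to 9693 CPM in miR-150 libraries, so that control 1, where slc4a1a and gata1a were highest, had the least. Skeletal muscle rows summed to 1078 to 2935 CPM in controls and to 2054 to 2581 CPM in miR-150 libraries. Myeloid rows, 20 in all, summed to 46.8 to 53.2 CPM in controls and to 36.7 to 153 CPM in miR-150 libraries, and lymphoid rows to at most 7.65 CPM in any library. Endothelium rows summed to 90.9 to 176 CPM and 141 to 319 CPM, and pronephros rows to 121 to 373 CPM and 132 to 383 CPM, in controls and miR-150 libraries. In miR-150 replicate 3, where hbae3, cahz and alas2 were highest, none of these summed levels was the highest of the 6. Single rows did peak there, such as krt8 at 621 CPM and TIE1 at 53.6 CPM, while others, such as krt4 and tek, did not. These rows were singled out after their values were seen. In control 3, the other library high in cahz, the epidermis, skeletal muscle, lymphoid and liver sums were the highest of the 6. The myeloid, endothelium and pronephros sums were not. The part of other cells in the levels of the 5 genes was not tested.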

How the data were processed

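RNA of sorted thrombocytes was measured in 6 libraries, 3 per genotype. Per the labels' protocols, cDNA was made with a SMARTer ultra-low input kit and libraries with Nextera XT. The authors deposited raw read counts per Ensembl gene, 1 column per library. The submitters' processing notes name STAR 2.7.10b, HTSeq 0.11.3, edgeR and the build GRCz11, with no roles. Annotation release, strand setting and treatment of duplicate reads are not given in the sources used here, so counting error is the least error a count can have.

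Columns were assigned by the names in the labels. Symbols came from a table that paired 29201 of the identifiers. It names some genes by human-style symbols, so list symbols were matched exactly, then in upper case, then in upper case without a paralogue letter, a rule set after the table was seen. Of 102 erythroid list symbols, 89 were matched. No sequence was used.

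Counts were tested in R 4.3.3 with edgeR 4.0.16 (filterByExpr, TMM, glmQLFit and glmQLFTest with genotype as the only term, all 6 libraries, Benjamini-Hochberg over 15722 genes, threshold 0.05). The SE is the value that gives the test's F statistic. Single values were tested by exact two-sided permutation over 20 assignments of labels. These tests used log2 CPM or log2 ratios, in both cases with 0.5 added to each count. Spread over libraries, likeness and correlations between libraries used log2 CPM with a prior count of 2. Alternatives were DESeq2 1.42.0 size factors and Wald test, upper-quartile scaling, library totals alone, no filter, a mean of at least 5 CPM, limma 3.58.1 voom with quality weights, an adjusted p below 0.10, a pseudocount of 1, each replicate left out and the replicate number as a block. Ratios to itga2b or to thrombocyte markers, and DESeq2 with a replicate left out, were added after seeing the data. The edgeR script was tested on simulated counts with known changes, and the exact test on made-up values. Such checks do not measure power on these libraries.

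The 5 genes and all lists were chosen with earlier results of these data known. Named by rule are the 5 genes, up to 4 tested genes per erythroid list by highest mean CPM, the 10 smallest p-values, and the 5 genes most like gata1a and alas2. Other erythroid rows named, including the untested globin rows and the other SLC4A1 row, were chosen after their values were seen. Same-numbered libraries were not taken as pairs, since their deviations from group means over all genes tested did not correlate above 0.1.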

Additional observations from a re-analysis of the deposited data

How the results depend on the processing

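The edgeR test called 0 genes under each alternative run with it, limma voom called 0, and the DESeq2 Wald test called 257. hbae3 kept its positive and slc4a1a its negative direction under all alternatives run. hbae3 was past the threshold in DESeq2 alone, with a log2 fold change of 5.10 on 6 libraries; the cause was not tested. Across the fits that leave out 1 replicate, log2 fold changes in edgeR ranged from -0.55 to 0.14 for gata1a, 0.18 to 1.02 for alas2, -4.70 to -1.51 for slc4a1a, -2.11 to 3.56 for cahz and 3.19 to 5.57 for hbae3. In DESeq2 they ranged from -0.56 to 0.10 for gata1a, 0.16 to 1.03 for alas2, -4.70 to -1.57 for slc4a1a and -2.13 to 3.64 for cahz, with -0.039 and -0.080 for cahz without control replicates 1 and 2. DESeq2 called hbae3 without control replicate 1, 2 or 3 (4.70, 5.14 and 5.56) and without miR-150 replicate 1 or 2 (5.64 and 5.48), but not without miR-150 replicate 3 (3.17). Under voom the signs of gata1a (0.16), alas2 (-0.32) and cahz (-0.75) turned, and hbae3 was at 2.93, its lowest log2 fold change in the fits run. With library totals alone cahz was at -0.021 and the difference in mean log2 CPM of alas2 at -0.0017, where the median of all genes moved from 0.04 to -0.15.

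In mean log2 CPM, leaving out a replicate gave -0.53 to 0.10 for gata1a, -0.31 to 1.22 for alas2, -5.06 to -1.65 for slc4a1a, -0.60 to 2.34 for cahz and 2.75 to 5.45 for hbae3. Scaled to itga2b or to thrombocyte markers the gata1a difference was 0.24 or 0.56, and on either scale miR-150 replicate 3 alone lay above every control. The hbae3 difference was 4.52 or 4.84, with groups that overlapped on the itga2b scale. The log2 ratios to gata1a ranged from -0.41 to 1.57 for alas2, -0.70 to 2.87 for cahz, 2.65 to 5.80 for hbae3 and -4.61 to -1.30 for slc4a1a. Genes whose groups do not overlap numbered 2136, and 3318 to 4491 with a replicate left out, where fewer libraries overlap less by construction. The replicate block changed no call; its log2 fold changes were -0.23, 0.24, -2.32, 0.77 and 4.08 for gata1a, alas2, slc4a1a, cahz and hbae3. At these depths alas2 rested on 29 to 208 counts per library.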
